A study of Homo sapiens with 8 samples.

Results

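The 10 BCL2 family genes described here are the anti-apoptotic genes BCL2, BCL2L1 and MCL1, the effectors BAX and BAK1, and the BH3-only genes BBC3, PMAIP1, BCL2L11, BID and BAD. Their members are the ChIP-seq regions that overlap the RefSeq GRCh38 span of one of these genes extended by 3000 bp on both sides. They came to 19 of the 55650 regions listed in the authors' deposited tables, 17 of 35154 for RBBP4 and 2 of 20496 for P300. All 10 gene symbols matched a RefSeq gene.

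The cells were NCI-H69, a line established from human small cell lung cancer. They received siRNA against CSNK2B, which encodes the beta (regulatory) subunit of the kinase CK2, or non-targeting control siRNA. They were fixed 48 h after transfection. RBBP4, a histone-binding subunit of several deacetylase and Polycomb complexes, and P300, a histone acetyltransferase, were immunoprecipitated and their DNA sequenced. With 1 immunoprecipitated library per antibody and arm, no difference below has a replicate check, and none was tested between the conditions.

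The BCL2 family decides whether the outer mitochondrial membrane is breached in apoptosis. BAX and BAK1 form the pores, BCL2, BCL2L1 (BCL-XL) and MCL1 hold them in check, and BH3-only proteins such as BBC3 (PUMA), PMAIP1 (NOXA), BCL2L11 (BIM), BID and BAD neutralise the protective members or activate the pore formers. Small cell lung cancer is known for high BCL2 levels, and drugs that mimic the BH3 domain have been tried in it. BBC3, PMAIP1 and BAX are classical p53 target genes.

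Read density is given in the authors' RPKM, reads scaled to region length and to a library total that the sources used here do not define. Steps in the RPKM values gave whole reads at all 19 member regions. The totals that these steps imply were 1207945 reads for the RBBP4 knockdown library, 833181 for the RBBP4 control library, 946392 for the P300 knockdown library and 1092789 for the P300 control library. Folds are ratios of reads scaled to these totals, with a 95% exact binomial interval that covers counting error only. Where a library had 0 reads, 3 reads were put in their place as a floor. Counts of 1 or 2 reads were kept as they were. A fold by the floor can thus be smaller than a fold from 1 or 2 reads, and their order carries no meaning. The authors' log2 fold changes were scaled otherwise, so that their median lay 0.56 above the RPKM ratio for RBBP4 and -0.42 from it for P300, on the log2 scale and over regions of at least 20 reads. A table lists only regions with a p under 0.05 by the authors, and that p compares 2 libraries. Region names carry the arm of the peak call, which was also the higher arm at 35151 of 35154 RBBP4 regions and 20496 of 20496 P300 regions, so the direction of a listed region nearly restates where its peak was called. Knockdown and control columns were told apart by their names alone, which for RBBP4 were only initials, and a swap would turn every direction. The cell identity rests on the labels. Of 8 neuroendocrine marker genes 2 had a listed RBBP4 region and 1 a listed P300 region. Of 6 fibroblast marker genes 4 had a listed RBBP4 region and 2 a listed P300 region. Over all protein-coding genes these shares were 51.6% and 23.6%. Only regions with a p under 0.05 between the arms are listed, so these counts measure neither occupancy nor expression. They do not bear on cell identity.

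Promoter windows, from 250 bp before to 50 bp after an annotated start, were available from RefSeq (GRCh38.p14) for 9 of the 10 genes, and MCL1 had no entry. An RBBP4 region with higher density after knockdown overlapped a window of 4 of these 9 genes, against 28.3% of 15843 protein-coding genes. The windows of these 4 genes are shown because they are the sequence under the RBBP4 regions. They lie at chr19:48954625-48954924 on the plus strand for BAX, chr18:59899746-59900045 on the plus strand for PMAIP1, chr2:111120664-111120963 on the plus strand for BCL2L11, and chr20:31723914-31724213 and chr20:31722819-31723118 on the minus strand for the upstream and downstream start of BCL2L1. Capitals mark GGGCGG, the GC box, on either strand (read as CCGCCC on the other) and the E-box CACGTG, and no 2 of these matches overlap.
BAX: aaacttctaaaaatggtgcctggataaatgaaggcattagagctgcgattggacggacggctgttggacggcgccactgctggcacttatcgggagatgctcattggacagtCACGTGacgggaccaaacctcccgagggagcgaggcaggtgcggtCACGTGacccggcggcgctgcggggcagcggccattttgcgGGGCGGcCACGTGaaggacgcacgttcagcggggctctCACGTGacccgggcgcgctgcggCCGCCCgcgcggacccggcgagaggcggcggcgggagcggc
PMAIP1: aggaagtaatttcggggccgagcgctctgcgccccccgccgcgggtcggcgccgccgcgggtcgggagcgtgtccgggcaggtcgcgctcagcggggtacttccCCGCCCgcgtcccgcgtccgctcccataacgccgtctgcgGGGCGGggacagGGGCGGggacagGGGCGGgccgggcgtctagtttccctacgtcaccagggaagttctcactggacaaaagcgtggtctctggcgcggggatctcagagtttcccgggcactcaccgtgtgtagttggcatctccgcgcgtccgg
BCL2L11: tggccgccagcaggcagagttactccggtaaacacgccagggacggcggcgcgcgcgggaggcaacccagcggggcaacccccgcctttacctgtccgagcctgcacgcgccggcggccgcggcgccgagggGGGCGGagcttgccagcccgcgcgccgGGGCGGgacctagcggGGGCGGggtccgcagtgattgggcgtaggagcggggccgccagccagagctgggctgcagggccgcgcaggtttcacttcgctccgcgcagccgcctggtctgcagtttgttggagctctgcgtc
BCL2L1 upstream start: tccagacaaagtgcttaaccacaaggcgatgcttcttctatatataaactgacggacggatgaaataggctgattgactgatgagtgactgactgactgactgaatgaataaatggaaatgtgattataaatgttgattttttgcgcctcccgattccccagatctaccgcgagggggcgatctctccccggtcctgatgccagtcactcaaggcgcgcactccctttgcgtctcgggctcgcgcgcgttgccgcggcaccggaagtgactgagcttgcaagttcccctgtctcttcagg
BCL2L1 downstream start: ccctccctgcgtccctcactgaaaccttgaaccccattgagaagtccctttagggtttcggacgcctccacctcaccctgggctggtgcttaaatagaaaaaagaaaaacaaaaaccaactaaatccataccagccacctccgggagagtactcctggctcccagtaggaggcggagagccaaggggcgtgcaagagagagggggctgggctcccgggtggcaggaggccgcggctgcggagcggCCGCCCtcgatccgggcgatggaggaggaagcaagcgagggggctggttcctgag

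The RBBP4 region covered 293 of the 300 bases of the BAX window, all 300 of the PMAIP1 window, 190 of the BCL2L11 window, and 179 and 266 of the upstream and downstream BCL2L1 windows. BAX held 4 matches to CACGTG and 2 to the GC box. At least 1 CACGTG was present in 8.34% of all 22199 protein-coding windows, and 4 or more in 0.0225%. PMAIP1 held 4 GC boxes, BCL2L11 held 3, and the downstream BCL2L1 window held 1. Of all windows 56.3% held at least 1 GC box and 12.0% held 4 or more. The upstream BCL2L1 window had no GC box and held 3 matches to TATAA or its reverse complement TTATA, counted with overlaps. At least 1 such match was found in 16.5% of windows. G and C made up 67.3% of the BAX, 71.3% of the PMAIP1, 74.7% of the BCL2L11, 52.0% of the upstream BCL2L1 and 61.3% of the downstream BCL2L1 window, against a median of 62.3% over all windows. A match is a description of letters and not evidence that a factor binds there.

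The first comparison asked where RBBP4 occupancy at these genes differed between CSNK2B knockdown and control cells. A listed RBBP4 region lay at 9 of the 10 genes, and BID had none, against 51.6% of 20037 protein-coding genes. RBBP4 density was higher after knockdown at 14 of the 17 regions and lower at 3, all of them by at least 2-fold on the log2(RPKM + 1) scale, where 64.9% of all listed RBBP4 regions lay past 2-fold upward and 31.2% past 2-fold downward. At the 14 higher regions density lay between 20.8 and 51.9 RPKM in knockdown cells and between 0 and 25.1 RPKM in control cells. At the 3 lower regions it lay between 0 and 5.59 RPKM in knockdown cells and between 32.4 and 40.5 RPKM in control cells. Each of the 9 genes had at least 1 higher one, against 46.5% of protein-coding genes. The lower ones lay inside BCL2 and BCL2L11. The listing itself was uneven between directions. Over all listed RBBP4 regions the smallest upward log2 ratio was 0.41 and the smallest downward one was -1.53. Smaller upward than downward differences were thus listed, and the part of this in the split of 14 and 3 was not tested.

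An adjusted p under 0.05 was given by the authors' deposited table to 8 higher regions and 1 lower region. Counted by region, 8 of 17 is close to the 48.3% of all listed regions that were higher with such a p, and 1 of 17 stands beside 8.94% for lower ones. Counted by gene, 8 of 10 members held a higher region with such a p, against 38.3% of protein-coding genes, and 1 held a lower one, against 5.6%. The genes without a higher region of that kind were BCL2L11 and BID. BAD is among the 8 through a region 13973 bp from its start that covers a start of the overlapping gene GPR137. The authors' log2 fold changes for RBBP4 lay a median of 0.56 above the RPKM ratio, over regions of at least 20 reads. That scale enlarges upward and shrinks downward differences. Its part in which regions were listed and in these calls by adjusted p was not tested. Gene spans ran from 4.31 kb at PMAIP1 to 197 kb at BCL2, and longer spans can hold more regions. The share of genes was not compared at matched length. The members were also chosen with earlier results of these data known, and whether that choice raised their share was not tested.

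**Figure D1:**
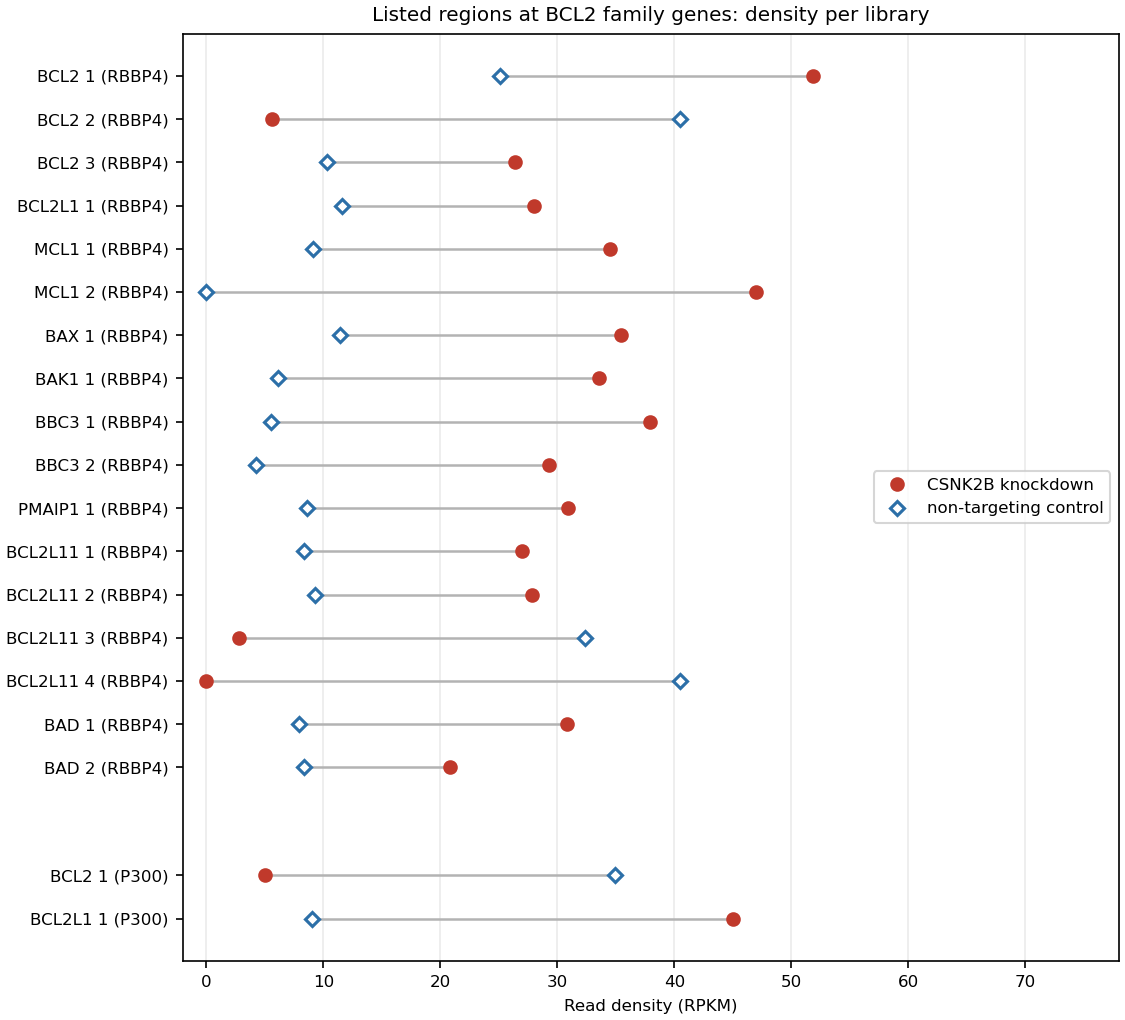
Read density in RPKM (x axis) at each listed region of a BCL2 family gene, 17 for RBBP4 above and 2 for P300 below, numbered by coordinate within a gene. Filled circles stand for the 1 CSNK2B knockdown library and open diamonds for the 1 control library. At the 14 higher RBBP4 regions the knockdown values lie at or above 20.8 RPKM, and at the 3 lower ones at or below 5.59 RPKM.

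Among the anti-apoptotic genes, MCL1, a short-lived guardian that many tumour cells depend on, had an RBBP4 region with reads in knockdown cells alone. This region, on chromosome 1 from 150579748 to 150580029 and 138 bp outside the gene end of higher coordinate, held 16 reads (47.0 RPKM) in knockdown cells and 0 reads in control cells. The density was 3.68-fold higher by the floor of 3 reads, with a lower interval limit of 2.66, and the authors' deposited table gave it an adjusted p of 0.00083. With 0 control reads its log2 ratio of 5.58 is set by the 1 RPKM added to both values, and it exceeded that of 99.8% of listed RBBP4 regions on that scale alone. A second MCL1 region, from 150578693 to 150578956 and 654 bp inside the same end, held 11 reads (34.5 RPKM) in knockdown cells and 2 reads (9.09 RPKM) in control cells. Its fold of 3.79 had an interval of 0.828 to 35.2, which includes 1.

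BCL2L1, whose product BCL-XL protects the outer mitochondrial membrane, had the widest region of the anti-apoptotic genes. It ran for 1240 bp from 31722853 to 31724092 on chromosome 20 and covered both annotated starts whose windows are printed above. The counts were 42 reads (28.0 RPKM) in knockdown cells and 12 reads (11.6 RPKM) in control cells. The fold of 2.41 (1.25 to 5.04) was among the smaller ones of the family, and the authors' deposited table gave an adjusted p of 0.00266.

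BCL2, the founding member of the family and the target of venetoclax, had 3 RBBP4 regions that differed in direction. The first, on chromosome 18 from 63123089 to 63123423, covered the downstream end of the gene and had the highest density of all 17, with 21 reads (51.9 RPKM) in knockdown cells and 7 reads (25.1 RPKM) in control cells. Its fold was 2.07 (0.847 to 5.76). The second lay deep inside the gene, from 63197027 to 63197322, with 2 reads (5.59 RPKM) in knockdown cells and 10 reads (40.5 RPKM) in control cells. That density was 7.25-fold lower (1.55 to 68.0), and its adjusted p by the authors' deposited table was 0.121. The third, from 63322164 to 63322979, lay 2395 bp upstream of the annotated start and held 26 reads (26.4 RPKM) in knockdown cells and 7 reads (10.3 RPKM) in control cells. It was 2.56-fold higher (1.08 to 6.99), and its adjusted p of 0.0198, from the authors' deposited table, was the one at BCL2 under 0.05.

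Both effector genes had 1 RBBP4 region each, and both were higher after knockdown. At BAX the region from 48954497 to 48954917 on chromosome 19 covered the start and nearly the whole window with its 4 CACGTG matches. It held 18 reads (35.4 RPKM) in knockdown cells and 4 reads (11.4 RPKM) in control cells, a 3.10-fold higher density (1.02 to 12.6) to which the authors' deposited table gave an adjusted p of 0.0367. At BAK1, the other pore former, the region from 33571040 to 33571631 on chromosome 6 lay 921 bp beyond the downstream end and 8645 bp from the start. The counts there were 24 reads (33.6 RPKM) in knockdown cells and 3 reads (6.08 RPKM) in control cells. This was a 5.52-fold higher density (1.68 to 28.6), and the authors' deposited table put its adjusted p at 0.00171.

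Among the BH3-only genes BBC3, which encodes PUMA, a broad antagonist of the anti-apoptotic proteins, had the smallest p of the family. The region from 47226917 to 47228007 on chromosome 19, inside the gene and 4660 bp downstream of its start, held 50 reads (37.9 RPKM) in knockdown cells and 5 reads (5.50 RPKM) in control cells. Density was 6.90-fold higher (2.77 to 22.2), and the authors' deposited table put its adjusted p at 4.11e-07. Among listed RBBP4 regions 4.6% had a smaller unadjusted p in the authors' deposited table. A narrower region from 47230571 to 47230853, 1814 bp downstream of the start, had the same fold of 6.90 from far fewer reads. It held 10 reads (29.3 RPKM) in knockdown cells and 1 read (4.24 RPKM) in control cells, and its interval of 0.981 to 299 includes 1.

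PMAIP1, which encodes NOXA, a BH3-only protein that acts mainly on MCL1, had a single RBBP4 region over its start. From 59899705 to 59900401 on chromosome 18 it held 26 reads (30.9 RPKM) in knockdown cells and 5 reads (8.61 RPKM) in control cells. The density was 3.59-fold higher (1.36 to 12.0), and the authors' deposited table put its adjusted p at 0.00511.

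BCL2L11, which encodes BIM, an activator of BAX and BAK1, had 4 RBBP4 regions, more than any other member, and they split by position. Next to the start on chromosome 2, the region from 111120424 to 111120853 held 14 reads (27.0 RPKM) in knockdown cells and 3 reads (8.37 RPKM) in control cells. The region from 111121085 to 111121471, 232 bp further on, held 13 reads (27.8 RPKM) in knockdown cells and 3 reads (9.30 RPKM) in control cells. These were 3.22-fold (0.898 to 17.5) and 2.99-fold (0.821 to 16.4) higher, and both intervals include 1. Farther into the gene the direction was the opposite. The region from 111125725 to 111126020, 4811 bp downstream of the start, held 1 read (2.80 RPKM) in knockdown cells and 8 reads (32.4 RPKM) in control cells, an 11.6-fold lower density (1.56 to 515). The region from 111128690 to 111128985, 7776 bp downstream, held 0 reads in knockdown cells and 10 reads (40.5 RPKM) in control cells. That density was 4.83-fold lower by the floor, with an interval limit of 3.25. Its adjusted p of 0.018, from the authors' deposited table, was the one at BCL2L11 under 0.05. The regions next to the start also lie within 3000 bp of ACOXL, an acyl-CoA oxidase-like gene.

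BAD, a BH3-only protein that phosphorylation by survival kinases keeps inactive, had 2 higher RBBP4 regions, and both are shared with GPR137, an overlapping gene for a membrane protein. The first, which also lies within 3000 bp of PLCB3, a phospholipase C gene, spans 64269321 to 64270692 on chromosome 11. It covered the downstream end of BAD and an annotated start of GPR137, 13973 bp from the start of BAD. It was the deepest region of the family, with 51 reads (30.8 RPKM) in knockdown cells and 9 reads (7.87 RPKM) in control cells, a 3.91-fold higher density (1.91 to 9.03), to which the authors' deposited table gave an adjusted p of 1.88e-05. The second, from 64285194 to 64285911, lay 490 bp upstream of the start of BAD and covered other GPR137 starts. It held 18 reads (20.8 RPKM) in knockdown cells and 5 reads (8.36 RPKM) in control cells, a fold of 2.48 (0.889 to 8.56). These regions cannot be credited to BAD alone.

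**Figure D2:**
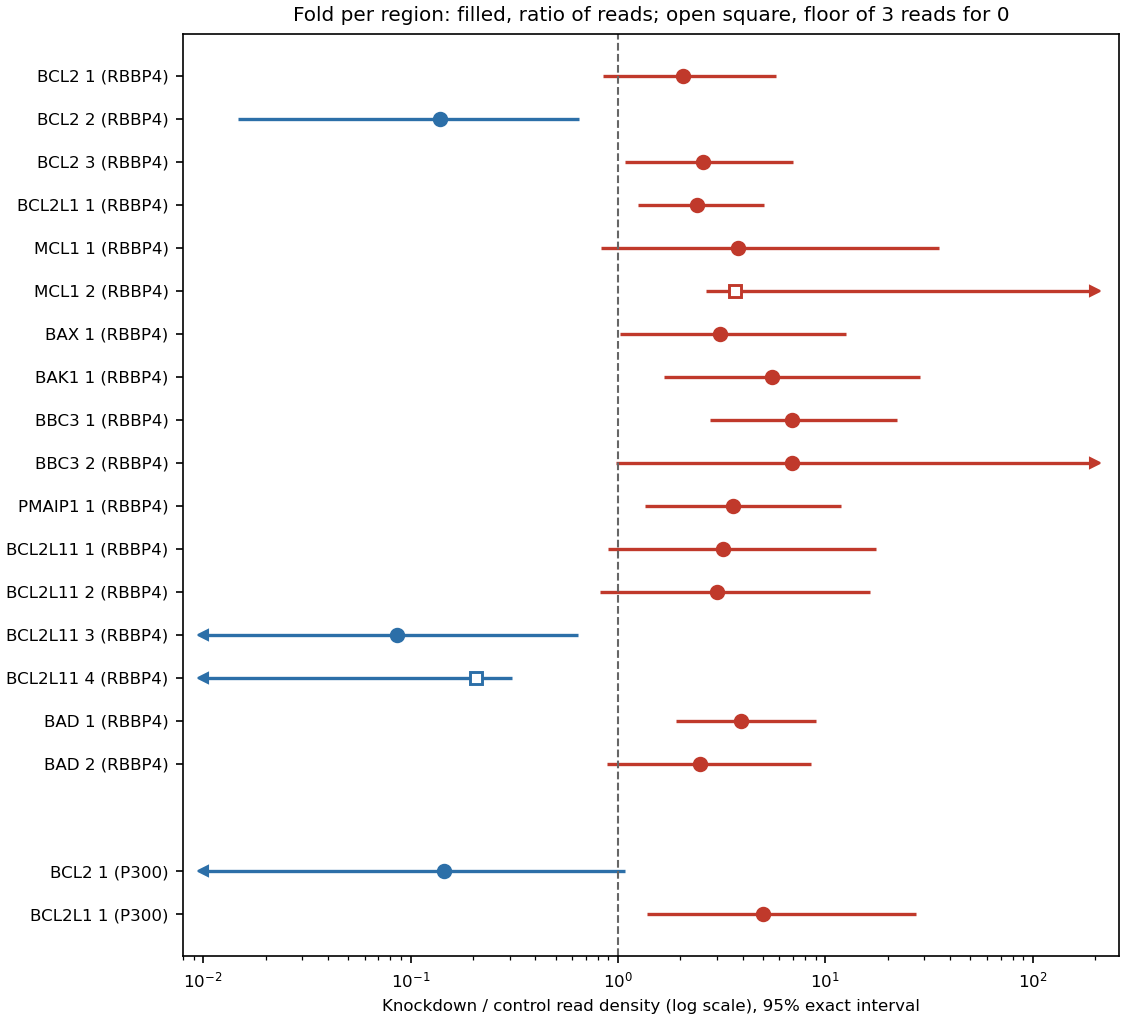
Knockdown over control fold (x axis, log scale) at each member region with its 95% exact interval for counting error. Red marks higher and blue lower regions, open squares use the floor of 3 reads for a library at 0, and arrows run past the axis. For RBBP4 the interval leaves out 1 at 11 of 17 regions, all of them listed for a p under 0.05 on the same reads.

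The intervals of 11 of the 17 RBBP4 regions left out 1 and those of 6 included it. Among 34558 listed RBBP4 regions with whole reads, 76.1% left out 1. Every listed region already had a p under 0.05 by the authors on the same reads. An interval that leaves out 1 is therefore no separate evidence of a difference. Regions with an adjusted p under 0.05 in the authors' deposited table had a median of 31 reads, both libraries summed (10 to 60), and the other 8 held 14.5 (9 to 28). Depth thus moved with the call, and its part in the calls was not tested. The median log2 ratio of the 17 regions was 1.55, against 1.49 over all listed RBBP4 regions. For the higher regions alone it was 1.66, against 1.86. Median depth was 22 reads for the family and 18 for all listed RBBP4 regions of whole reads, and median width was 421 bp and 429 bp.

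By role, the 6 regions at anti-apoptotic genes had a median log2 ratio of 1.24, the 2 at effectors 1.92 and the 9 at BH3-only genes 1.58. The ranges of these roles overlapped, from -2.66 to 5.58 for anti-apoptotic genes, 1.55 to 2.29 for effectors and -5.38 to 2.58 for BH3-only genes. Summed over their regions, BH3-only genes held 183 reads in knockdown cells and 49 in control cells, with the BAD regions shared with GPR137 included. Effectors held 42 in knockdown cells and 7 in control cells, and anti-apoptotic genes 118 in knockdown cells and 38 in control cells. These sums are not scaled to the library totals, and the knockdown total was the larger. All listed RBBP4 regions of whole reads held 705414 reads in knockdown cells and 262939 in control cells.

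**Figure D3:**
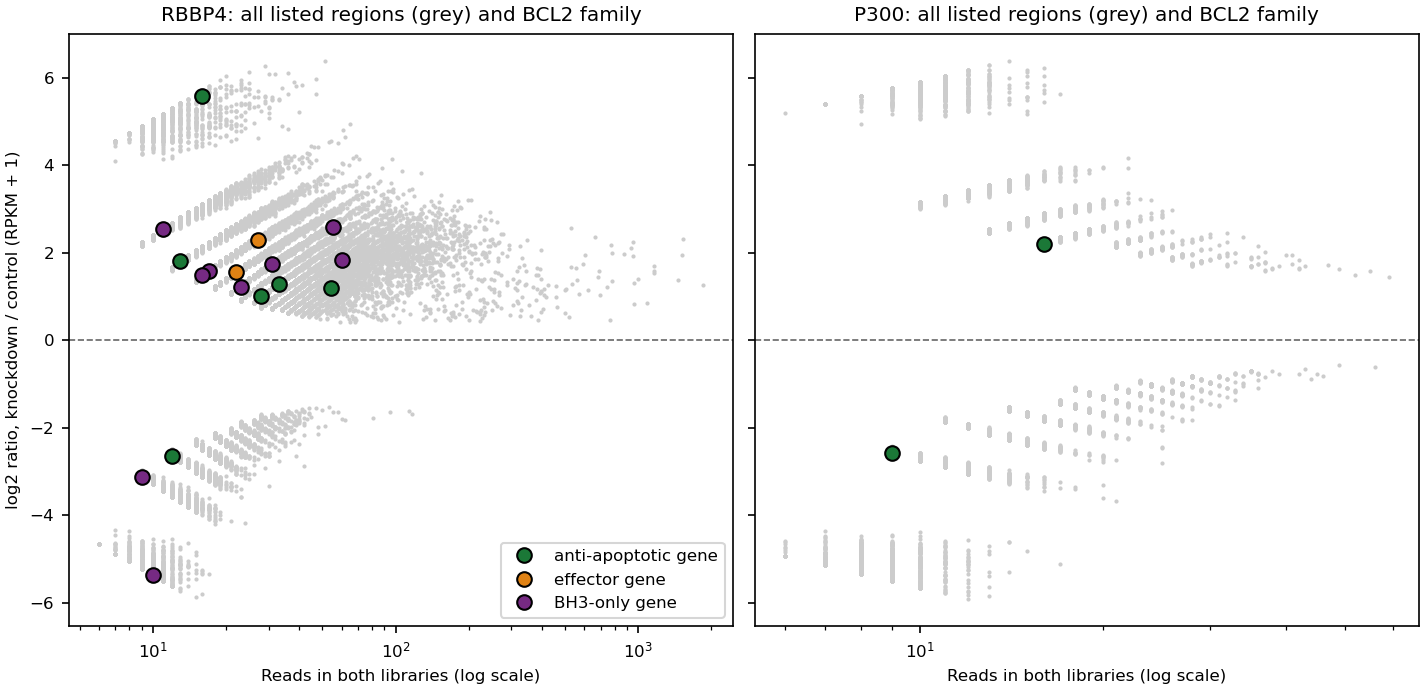
Log2 ratio of knockdown over control RPKM with 1 added (y axis) against reads in both libraries (x axis, log scale) for every listed region of whole reads (grey) and the BCL2 family regions, coloured by role. The family's RBBP4 regions lie between 9 and 60 reads and within the spread of the listed regions, whose low-read bands reflect whole read counts.

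Higher and lower RBBP4 regions differed in place. Of the 12 higher regions at genes with an annotated start, 3 covered it, 5 others lay within 3000 bp and 4 lay farther away, at BCL2, BAK1, BBC3 and BAD. The 3 lower regions were all 4811 bp or more away from the start of their gene. Over all listed RBBP4 regions, 29.4% of higher and 3.57% of lower ones lay within 3000 bp of any annotated start, so the same order held over the whole table. Nearness to a start is also part of how members were chosen, above all at short genes. Both directions occurred at 2 genes, BCL2 and BCL2L11, against 9.64% of protein-coding genes.

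**Figure D4:**
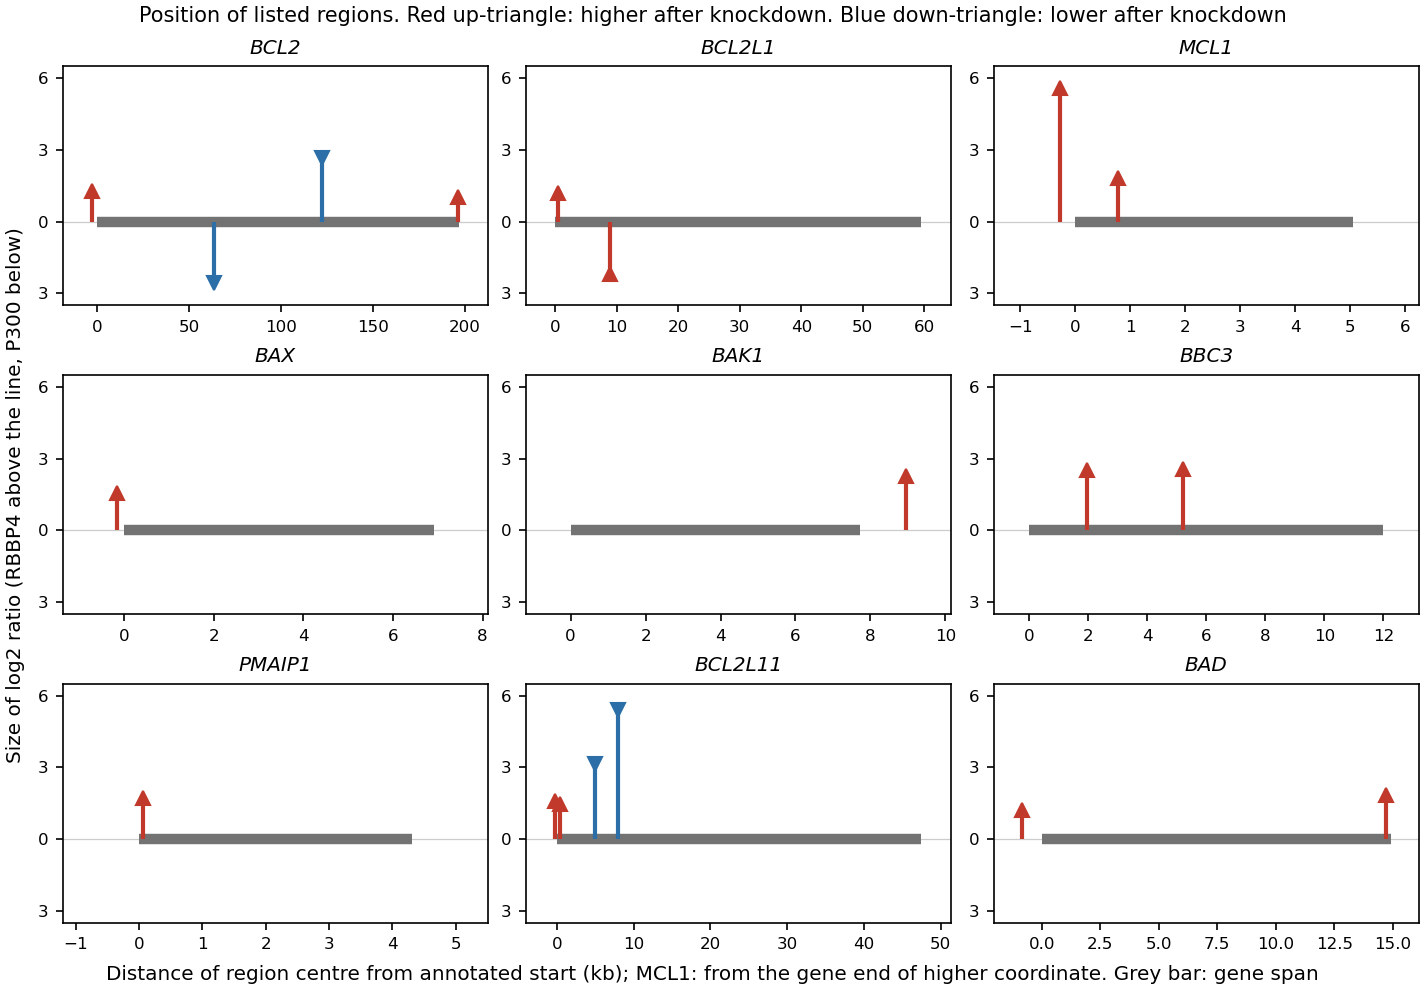
Position of each listed region's centre in kb from the annotated start of its gene (x axis, a scale of its own per gene; MCL1 from the gene end of higher coordinate) with the gene span in grey. Line length is the size of the log2 ratio, RBBP4 above and P300 below the line; red triangles pointing up are higher and blue ones pointing down are lower after knockdown. The 3 lower RBBP4 regions lie inside BCL2 and BCL2L11, and the higher ones there lie near gene ends.

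The second comparison asked the same of P300. A listed P300 region lay at 2 of the 10 genes, against 23.6% of protein-coding genes, and 1 was higher and 1 lower after knockdown. Among all listed P300 regions 34.7% lay past 2-fold upward and 64.3% past 2-fold downward. At BCL2L1 the region from 31714800 to 31715104 on chromosome 20, inside the gene and 7764 bp from an annotated start, held 13 reads (45.0 RPKM) in knockdown cells and 3 reads (9.0 RPKM) in control cells. Density was 5.00-fold higher (1.38 to 27.4). At BCL2 the region from 63256254 to 63256463 on chromosome 18, inside the gene and 63306 bp from the start, held 1 read (5.03 RPKM) in knockdown cells and 8 reads (34.9 RPKM) in control cells. Density was 6.93-fold lower, with an interval of 0.929 to 307 that includes 1. The interval of 1 of the 2 P300 regions thus left out 1, against 62.5% of listed P300 regions with whole reads. By the authors' deposited table the adjusted p was 0.293 at BCL2L1 and 0.260 at BCL2, and 0.260 was the lowest of any P300 region, so by that criterion 0 P300 regions passed, while every listed region had an unadjusted p under 0.05 in that table.

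At neither gene did listed P300 and RBBP4 regions overlap. The P300 region of BCL2L1 lay 7749 bp from the RBBP4 region over the starts, and both were higher after knockdown. The P300 region of BCL2 lay 58932 bp from the nearest RBBP4 region of that gene, and both were lower. Of all listed P300 regions 1.55% overlapped a listed RBBP4 region. Regions without a difference between the arms are not listed, so this share does not measure occupancy by both proteins. The batch labels of the immunoprecipitated libraries read RBBP4 or P300, the names of the antibodies, and state no other batch. The antibodies were compared only in this side-by-side form. No promoter window of the 9 genes overlapped a listed P300 region, where 0.36% of protein-coding genes had a higher and 0.347% a lower one over a window.

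The distance of 3000 bp left some regions just outside. The BCL2 region 2074 bp beyond the span, described above, was the outermost inside. Nearest outside was an RBBP4 region 3073 bp beyond BAX, from 48964871 to 48966341, that covered a start of FTL, the ferritin light chain gene, with 42 reads in knockdown cells and 10 in control cells. BID, which caspase 8 cleaves to link death receptors to mitochondria, had its nearest RBBP4 region 6790 bp beyond its upstream end, with 17 reads in knockdown cells and 4 in control cells. At PMAIP1 a P300 region 7120 bp upstream held 10 reads in knockdown cells and 1 in control cells.

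Further apoptosis genes, in 6 lists of 65 genes, were taken to place the family within the pathway. Like the members, they were chosen with earlier results of these data known. Whether that choice raised their shares was not tested. An RBBP4 region that was higher with an adjusted p under 0.05 in the authors' deposited table lay at 38 of the 65 (58.5%), and a lower one at 6, against 38.3% and 5.6% of protein-coding genes. Of the other BCL2 family genes 7 of 14 had such a higher region and 0 a lower one. BOK, an effector-like member, held 66 reads in knockdown cells and 9 in control cells (5.06-fold, 2.51 to 11.6). BCL2L13, a mitochondrial member, held 87 reads in knockdown cells and 14 in control cells (4.29-fold, 2.42 to 8.16). BCL2L15 held 27 reads in knockdown cells and 1 in control cells (18.6-fold, 3.07 to 763). Of the genes of the apoptosome and caspases, which act once the membrane is open, 9 of 13 had a higher and 1 a lower region of this kind. CYCS, the gene of cytochrome c, held 52 reads in knockdown cells and 7 in control cells over its start (5.12-fold, 2.32 to 13.4). At ENDOG, a mitochondrial nuclease, there were 21 reads in knockdown cells and 0 in control cells over the start (4.83-fold higher by the floor, interval limit 3.59). At HTRA2, a mitochondrial protease, there were 43 in knockdown cells and 8 in control cells (3.71-fold, 1.72 to 9.13).

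Of the inhibitors of apoptosis 5 of 7 had a higher region with such a p and 1 a lower one. BIRC2, which encodes a ubiquitin ligase that restrains cell death, was both. Its higher region held 25 reads in knockdown cells and 0 in control cells (5.75-fold higher by the floor, interval limit 4.34). BIRC5, the survivin gene, held 57 reads in knockdown cells and 14 in control cells (2.81-fold, 1.55 to 5.46), and BIRC6 held 26 in knockdown cells and 3 in control cells (5.98-fold, 1.83 to 30.9). In the death receptor pathway 5 of 10 genes had a higher and 2 a lower region of this kind. FAS, a death receptor, held 52 reads in knockdown cells and 8 in control cells (4.48-fold, 2.12 to 10.9), and FADD, its adaptor, held 32 in knockdown cells and 3 in control cells (7.36-fold, 2.30 to 37.6). Of the mitochondrial partners 4 of 9 had a higher and 1 a lower region. TMBIM6, the gene of an endoplasmic reticulum protein, held 19 reads in knockdown cells and 2 in control cells (6.55-fold, 1.58 to 58.0). BAG1, a BCL2-binding co-chaperone, held 13 in knockdown cells and 0 in control cells (2.99-fold higher by the floor, interval limit 2.10). Of the regulators of these genes or proteins 8 of 12 had a higher and 1 a lower region. FBXW7, a ubiquitin ligase subunit that marks MCL1 for degradation, held 33 reads in knockdown cells and 3 in control cells (7.59-fold, 2.38 to 38.7). HUWE1, another MCL1 ligase, held 25 reads in knockdown cells and 2 in control cells (8.62-fold, 2.15 to 75.1). BTRC, the gene of a further ligase subunit, held 75 reads in knockdown cells and 20 in control cells (2.59-fold, 1.56 to 4.47). The 6 genes with a lower region of this kind were CASP6, BIRC2, FASLG, RIPK1, VDAC1 and FOXO1, named here after their values were seen. Of these, BIRC2, RIPK1, VDAC1 and FOXO1 also had a higher region with such a p.

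**Figure D5:**
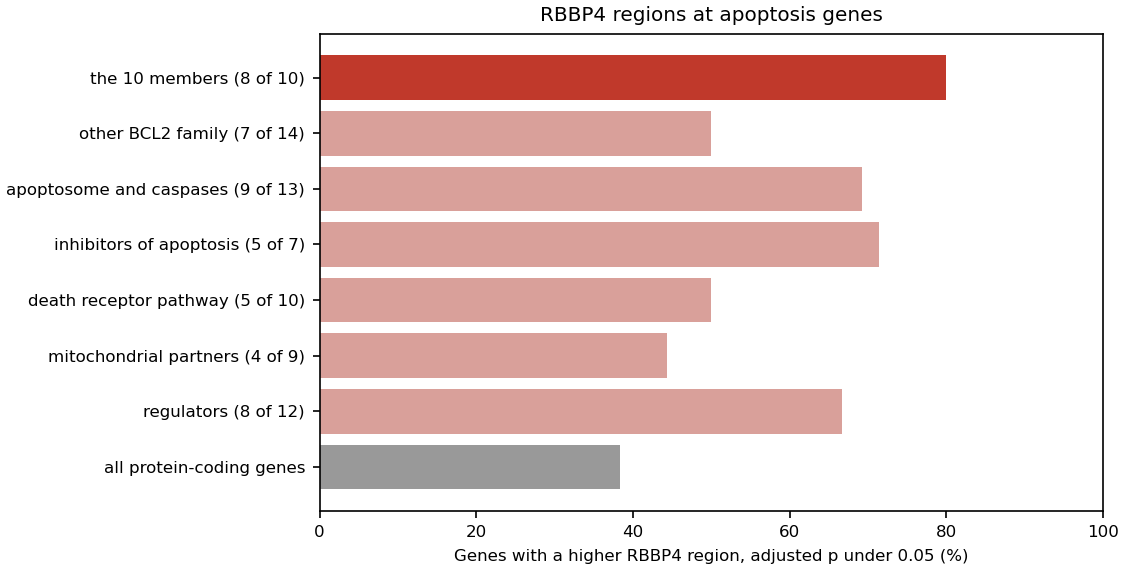
Share of genes (x axis, percent) with an RBBP4 region within 3000 bp that was higher after knockdown with an adjusted p under 0.05 in the authors' deposited table, for the 10 BCL2 family members, the 6 other lists and all protein-coding genes (grey). The members stand at 80.0%, with BAD counted through a region it shares with GPR137, and all protein-coding genes at 38.3%. The members and lists were chosen with earlier results of these data known, and no share was tested.

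P300 regions lay at 12 of the 65 genes, with a higher one at 4 (CASP10, BIRC6, BTRC and USP9X) and a lower one at 9. Over all protein-coding genes 23.6% had a listed P300 region, 11.5% a higher and 17.7% a lower one. None of the 14 other BCL2 family genes had a listed P300 region. A P300 region 165 bp from a start of CASP8, the initiator caspase of death receptors, held 1 read in knockdown cells and 9 in control cells (7.79-fold lower, 1.08 to 342). CASP10, its close relative, had P300 regions of both directions. The higher one held 12 reads in knockdown cells and 0 in control cells (4.62-fold higher by the floor, interval limit 3.21). At FAS the P300 region held 4 reads in knockdown cells and 15 in control cells (3.25-fold lower, 1.04 to 13.4), the opposite direction to RBBP4 there. None of these P300 regions had an adjusted p under 0.05 in the authors' deposited table.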

How the data were processed

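ChIP-seq libraries of NCI-H69 cells were prepared per the labels after fixation with 1% formaldehyde for 10 min and read as paired 150 bp reads. The submitters' processing notes name GRCh38 and, among the tools, Bowtie2 2.4.5 beside Trim Galore 0.6.7 and FastQC, DiffBind 3.4.11 beside MACS2 2.2.7.1, and ChIPseeker 1.28.3. Their roles are not given in the sources used here. Of 8 libraries, 4 were inputs, which were not used here. The authors deposited RPKM values per region for knockdown and control. Their log2 fold change, mean log2 CPM, p-value and adjusted p-value are the authors' own, per the file headers. Whole reads, within 0.01 of a read, were recovered for 98.3% of RBBP4 and 99.36% of P300 regions with Python 3.11.15, pandas 2.3.3 and scipy 1.17.1, and recovery was tested on simulated data. Depth totals are inferred from the RPKM steps and were not checked. Gene spans and windows are RefSeq GRCh38.p14. The log2 ratio used a pseudocount of 1 RPKM, and a call was 2-fold. No count model was run, since each arm had 1 library. All 10 members are named with every region, and examples of each other list come from the 3 genes per antibody with the smallest p in the authors' table, where their reads were whole. The members and lists were chosen with earlier results of these data known. Alternatives covered the pseudocount, scaling, listing threshold, level, gene flank, overlap and fold.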

Additional observations from a re-analysis of the deposited data

How the results depend on the processing

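All 19 member regions kept their direction with a pseudocount of 0.1 RPKM and with the authors' log2 fold change. Of these 38 values 34 moved by less than the shorter side of their counting interval. The other 4 belong to the MCL1 and BCL2L11 regions with 0 reads in 1 library, at 8.88 and 7.03 for MCL1 and -8.67 and -6.32 for BCL2L11. The intervals of these regions are open on 1 side and do not exclude such values. The 4 moved by more than the distance from the floor fold to the closed limit. The median RBBP4 log2 ratio was 2.18 by the authors' column. With regions at or above the median RPKM sum, RBBP4 counts were 5 higher and 1 lower at 4 genes, and P300 counts 0 lower at 1 gene with a median of 2.2, against -0.18 over both regions. With an adjusted p under 0.05 they were 8 higher and 1 lower for RBBP4, and for P300 0 higher and 0 lower at 0 genes, which left no P300 median. With no flank 9 RBBP4 regions were higher, and at 4-fold 4 were. With a flank of 10000 bp 2 of 3 P300 regions were higher, and the median over all 3 was 2.2. The cause of these moves was not tested beyond what each setting changes by construction: the scale, the regions kept or the threshold. No replicate could be left out. No paired analysis was possible because each antibody had 1 library per arm. Depth limits single regions: 6 of 17 RBBP4 intervals and 1 of 2 P300 intervals include 1.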
